A study of Mus musculus with 13 samples.

Results

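Gene expression was compared between a library pair labelled as chemically induced corneal endothelial cells (P1) and a pair of the induced neural crest stage (D12) in a chemical conversion of mouse fibroblasts. The 4 libraries compared, 2 of P1 and 2 of D12, were all those with these labels among the 13 libraries of the study. P1 cells were C57BL/6 cells labelled as chemically induced corneal endothelial cells, and the labels give "P1" without expanding it and without a day. D12 cells were C57BL/6 cells labelled as chemically induced neural crest cells at day 12. Both groups started from embryonic fibroblasts, whose age is given for the D0 libraries as E13.5. The small molecules, their doses and the medium of each stage are not given in the sources used here. The labels do not say whether the libraries of a pair came from separate cultures. P-values therefore reflect how far these libraries differ, and that spread may be technical. The other libraries, fibroblasts (D0, 3 libraries), day 7 cells (D7, 3), a further ciCEC pair (P8, 2) and primary corneal endothelia taken at postnatal day 30 (pCEC, 1), entered the shared estimate of the spread.

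The neural crest is an embryonic population of migratory cells that arises at the border of the neural plate, and part of it moves into the eye as periocular mesenchyme. Corneal endothelium forms from that mesenchyme as a single layer of cells that lies on Descemet membrane and keeps the cornea clear by moving ions and water out of the stroma. It keeps mesenchymal features, such as N-cadherin and vimentin, beside tight junctions, whereas the epithelium on the outer face of the cornea carries keratins, E-cadherin and desmosomes.

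The deposited values are FPKM, a fragment count divided by transcript length and by library size. Lines of the deposited table were matched to genes within each group before use, because the ID column follows only the D0 columns, so the gene of each P1 and D12 value is inferred. Library totals recovered from the values were 22587267 and 9997865 reads in P1, against 16803087 and 15614252 reads in D12. Spearman's rho over genes was 0.914 between the P1 libraries and 0.987 between the D12 libraries, and 3228 genes were over 2-fold apart between the P1 libraries, against 199 between the D12 libraries. P1 replicate 1 is the deeper P1 library, and each P1 library is therefore also given alone. The annotated miRNA gene Gm23935, chosen after its values were seen, took 2.23% and 6.59% of all FPKM in P1 (14564 and 49905 FPKM in P1, against 2823 and 6159 FPKM in D12). Xist and the Y-linked genes also separated the P1 libraries, with values given below.

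Of 17332 genes tested with limma on log2(FPKM + 1), 4797 (27.7%) were called in P1 against D12. A call needed an adjusted p (Benjamini-Hochberg) below 0.05 and a log2 fold change of 1 or more in either direction. The genes called higher numbered 2577 (14.9%) and those called lower 2220 (12.8%). With TMM scaling the larger number was on the other side, with 2329 higher and 2481 lower. The P1 and D12 values of all 4797 called genes did not overlap. With 2 libraries a group, the limits for a call make this likely for any called gene, so it adds no support. The share without overlap over all genes tested is not given here. With P1 replicate 1 alone 30.9% of genes were called, with P1 replicate 2 alone 24.5%, and 36 genes were called in opposite directions by the 2 libraries. Without D12 replicate 2 the count over all genes was 2868, with 1354 higher and 1514 lower. Each library alone called 1384 genes higher (7.99%) and 1406 genes lower (8.11%) in common. The median log2 fold change over all genes tested was 0.11, and 0.04 after TMM scaling. A fold change on this scale understates the change of low genes, and the rise or fall of a gene in bulk RNA cannot be told apart from a change in the share of cells that express it.

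Genes of stratified and simple epithelia were among the abundant P1 genes that rose. Of the 18 keratins tested, 14 rose and 0 fell, with a median log2 fold change of 8.05, a value that depends on the pseudocount because 5 of them were listed at 0 in both D12 libraries. Their summed level was 11038 and 21602 FPKM in P1, against 13.3 and 12.6 FPKM in D12. Fewer keratins were called with each P1 library alone, where the median log2 fold change was 7.48 with replicate 1 and 8.62 with replicate 2. Krt14, the type I keratin of basal epithelial cells (GRCm38 chr11:100203162-100207548), had 3533 and 3569 FPKM in P1 and was listed at 0 in both D12 libraries. Its partner Krt5 (chr15:101707070-101712898) had 2360.3 and 2192 FPKM in P1, against 0.0271 and 0 FPKM in D12. Both P1 libraries held these basal keratins at nearly the same level, and both genes were called with each P1 library alone. Neither was called with voom on the recovered reads or without D12 replicate 2, with an adjusted p of 0.164 and 0.0572 for Krt14. The keratins called numbered 3 with voom, 7 without D12 replicate 1 and 4 without D12 replicate 2.

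The simple keratins Krt8 and Krt18, which pair with each other, rose as well. Krt8 had 319.8 and 1333 FPKM in P1, against 1.28 and 0.3598 FPKM in D12 (log2 fold change 8.54 ± 1.81, adjusted p = 0.00599). Krt18 had 221 and 1017 FPKM in the P1 libraries and 3.11 and 3.03 FPKM in the D12 libraries (log2 fold change 6.87 ± 1.03, adjusted p = 0.00104). In both genes P1 replicate 2 was the higher library and all P1 values lay above all D12 values. The same order held for Krt19, a simple keratin with 889 and 3159 FPKM in P1, against 4.36 and 3.85 FPKM in D12, and for Krt4 and Krt13, keratins of mucosal and conjunctival epithelium. Krt13 had 1123 and 3807 FPKM in the P1 libraries and 0 and 0.405 FPKM in the D12 libraries. Krt4 had 131 and 1155 FPKM in the P1 libraries and 0 and 0.03003 FPKM in the D12 libraries. Krt15, a keratin of basal and limbal cells, ran the other way, with 396 and 126 FPKM in P1, against 0.0498 and 0.214 FPKM in D12. Krt1 and Krt10, the keratins of epidermal differentiation, did not pass the test and stayed at or under 3.09 FPKM in all 4 libraries. Krt12, the keratin that defines corneal epithelium, was at 0 and 0.0540 FPKM in P1 and listed at 0 in D12, below the 1 FPKM needed for a test. Members such as Krt6a and Krt6b are close copies of each other, and how shared reads were counted is not given in the sources used here.

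**Figure D1:**
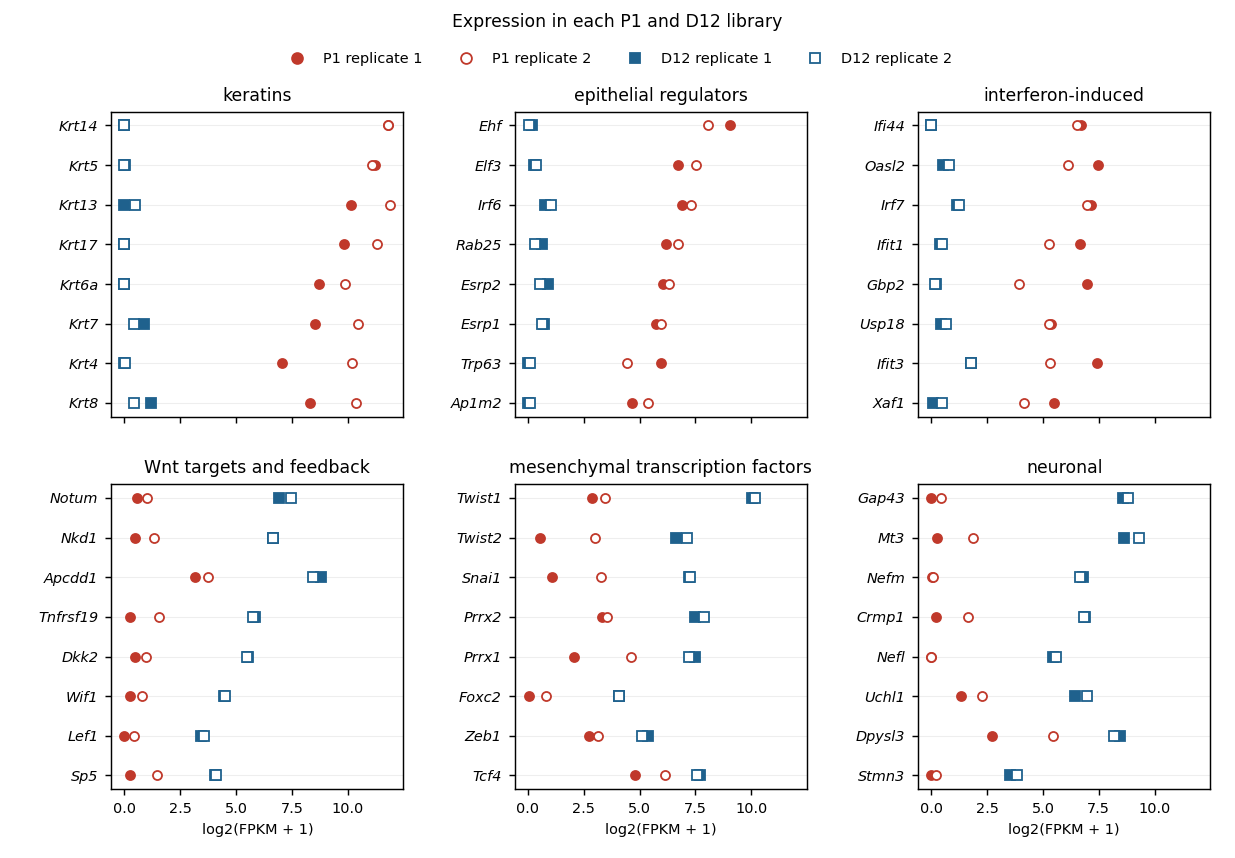
Expression as log2(FPKM + 1) of the 8 members with the largest fold change in each of 6 gene lists, with red circles for the P1 libraries, blue squares for the D12 libraries, filled marks for replicate 1 and open marks for replicate 2. Krt14 sits at the right end with both P1 libraries and at 0 with both D12 libraries, whereas Twist1, Notum and Nefm show D12 on the right.

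Genes of epithelial junctions rose with the keratins: of 26 tested, 24 rose and 0 fell, and the median log2 fold change was 4.94. Fewer of them were called with each P1 library alone, where the median was 4.90 with replicate 1 and 4.96 with replicate 2. Cdh1, which encodes E-cadherin (chr8:106603351-106670246), had 351 and 474 FPKM in P1, against 0.742 and 0.183 FPKM in D12 (log2 fold change 8.15 ± 2.0, adjusted p = 0.0112). The tight junction gene Cldn4 had 244 and 1059 FPKM in the P1 libraries and 0.557 and 0.458 FPKM in the D12 libraries (log2 fold change 8.4 ± 2.25, adjusted p = 0.0166). Epcam, an epithelial adhesion molecule that binds claudins, had 76.3 and 415 FPKM in P1, against 0.846 and 0.377 FPKM in D12 (log2 fold change 6.81 ± 1.98, adjusted p = 0.0229). P1 replicate 2 was over 4 times as high as replicate 1 in both, and neither was called with P1 replicate 1 alone. The desmosome genes were more even between the P1 libraries. Pkp1, a desmosomal plaque protein, had 324 and 387 FPKM in P1, against 0.199 and 0.19 FPKM in D12 (log2 fold change 8.22 ± 1.91, adjusted p = 0.00893), and the desmocollin Dsc2 had 86.8 and 96.6 FPKM in the P1 libraries and 0.341 and 0.167 FPKM in the D12 libraries. Dsp, the linker between desmosomes and keratin filaments, had 275 and 270.1 FPKM in P1, against 20.2 and 15.2 FPKM in D12 and was not called (log2 fold change 3.88 ± 1.8, adjusted p = 0.113), although its values did not overlap. Without P8 replicate 2, whose disagreement with the other P8 library enters the shared spread, the adjusted p of Dsp was 1.48e-07 and the count of the list was 25 of 26. The count was 7 with voom on the recovered reads, 8 without D12 replicate 1 and 3 without D12 replicate 2. Cldn3 was the other member not called, with 44.2 and 354 FPKM in the P1 libraries and 28.6 and 36.2 FPKM in the D12 libraries.

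Components that anchor epithelia to a basement membrane followed, with 7 of 11 tested genes higher, 0 lower and a median log2 fold change of 3.13. With voom 4 were called, and without D12 replicate 2, 3 were. Lama3, a chain of laminin-332, had 50.2 and 51.4 FPKM in the P1 libraries and 0.0222 and 0.0398 FPKM in the D12 libraries (log2 fold change 5.65 ± 1.15, adjusted p = 0.00501). Col17a1, the transmembrane collagen of hemidesmosomes, had 413 and 168 FPKM in P1, against 0.0782 and 0.0421 FPKM in D12, higher in P1 replicate 1. The integrin chain Itgb4 had 162 and 109.8 FPKM in the P1 libraries and 17.7 and 16.5 FPKM in the D12 libraries and was not called (log2 fold change 2.89 ± 1.48, adjusted p = 0.145).

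Of 20 regulators of epithelial identity tested, 15 rose and 0 fell, with a median log2 fold change of 4.89. Fewer regulators were called with each P1 library alone, where the median was 4.59 with replicate 1 and 4.90 with replicate 2. Grhl2, a transcription factor that maintains epithelial junction genes, had 33.9 and 29.8 FPKM in P1, against 0.211 and 0.0757 FPKM in D12 (log2 fold change 4.85 ± 1.17, adjusted p = 0.0104). Ehf, an ETS factor of epithelia, had 529 and 269.8 FPKM in the P1 libraries and 0.147 and 0.0395 FPKM in the D12 libraries (log2 fold change 8.44 ± 2.14, adjusted p = 0.013). Esrp1, which directs epithelial splicing, had 51.6 and 61.6 FPKM in P1, against 0.627 and 0.562 FPKM in D12. Trp63, the p63 factor of basal cells, had 61.2 and 20.7 FPKM in the P1 libraries and 0.0167 and 0.0718 FPKM in the D12 libraries (log2 fold change 5.14 ± 1.53, adjusted p = 0.0257) and was called with P1 replicate 1 alone but not with replicate 2 alone. Tfap2c did not pass the test, with 5.21 and 4.61 FPKM in P1, against 8.68 and 7.03 FPKM in D12. The members Grhl1, Grhl3, Klf5 and Spint1 were higher in both P1 libraries than in both D12 libraries but were not called, and without P8 replicate 2 all 4 were, with 19 of 20 higher. The count was 8 with voom on the recovered reads, 6 without D12 replicate 1 and 3 without D12 replicate 2.

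Promoters of junction genes are shown because Snai and Zeb factors are known to bind E-box motifs there. The motif CACCTG or CAGGTG, which are reverse complements of each other, was searched on both strands of RefSeq promoters (GRCm38.p6, 250 bases before to 50 after a start). It was present in 7 of the 11 called junction genes with a promoter in the table and in 5 of the 7 called regulators. Among members not called that had a promoter, it was present in 2 of 2 junction genes and in 1 of 3 regulators. The share was 21.4% over all genes tested, 28.9% over genes called higher and 20.7% over genes called lower. The promoters of Cldn4 (chr5:134946885-134947184, minus strand) and Epcam (chr17:87635729-87636028, plus strand) each held 2 matches, in capitals.
Cldn4: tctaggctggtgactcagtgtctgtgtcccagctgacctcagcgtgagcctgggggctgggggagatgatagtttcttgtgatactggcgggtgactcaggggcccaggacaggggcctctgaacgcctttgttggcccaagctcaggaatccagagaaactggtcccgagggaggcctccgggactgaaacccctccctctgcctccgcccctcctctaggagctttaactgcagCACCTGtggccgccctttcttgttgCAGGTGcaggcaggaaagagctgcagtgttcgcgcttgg
Epcam: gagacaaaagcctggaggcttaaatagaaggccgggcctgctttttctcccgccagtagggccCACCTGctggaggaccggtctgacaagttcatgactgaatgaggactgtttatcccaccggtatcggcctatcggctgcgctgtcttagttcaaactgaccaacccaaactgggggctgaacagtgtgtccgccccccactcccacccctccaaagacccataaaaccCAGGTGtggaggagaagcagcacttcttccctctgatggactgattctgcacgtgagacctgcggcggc
A match is a description of letters, and binding was not measured.

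**Figure D2:**
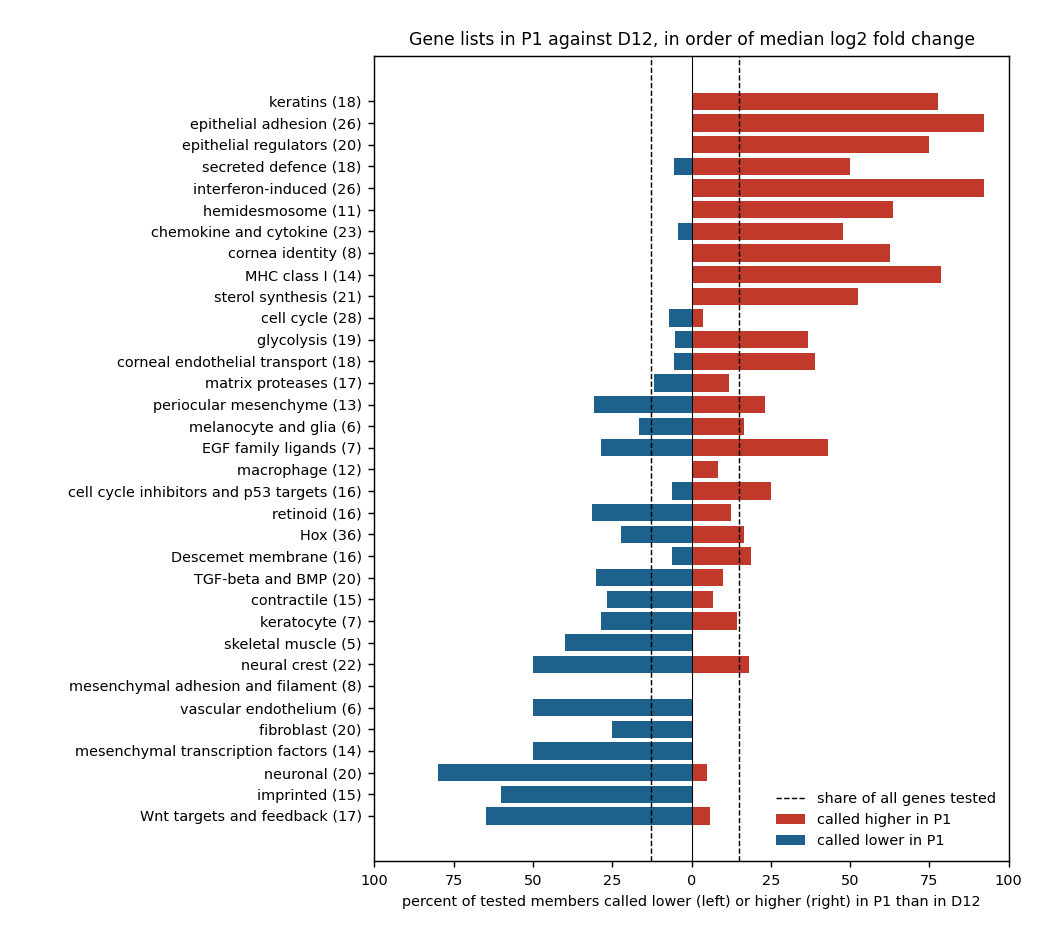
Percent of the tested members of each of 34 gene lists called higher (right, red) or lower (left, blue) in P1 than in D12, with the number tested in brackets and dashed lines at the shares of all genes tested, 14.9% and 12.8%. Keratins, junction genes, interferon-induced genes and MHC class I genes lie far past the right line, and neuronal genes and Wnt targets far past the left line.

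Among genes of the neural crest and transcription factors of mesenchyme, more were called lower than higher in P1. Of 22 neural crest genes tested, 4 rose and 11 fell, with a median log2 fold change of -1.14. With a pseudocount of 5, 3 rose and 7 fell, and without D12 replicate 1 or without D12 replicate 2, 2 rose and 8 fell. Twist1, a factor of mesenchyme and cranial crest (chr12:33957671-33959829), had 6.31 and 10.1 FPKM in P1, against 1032 and 1136 FPKM in D12 (log2 fold change -6.91 ± 0.55, adjusted p = 3.39e-05). The homeobox factors Msx1 and Msx2 fell, with 1.28 and 2.36 FPKM in the P1 libraries and 27.4 and 33.8 FPKM in the D12 libraries for Msx1 and 0.4403 and 0.497 FPKM in the P1 libraries and 11.9 and 10.5 FPKM in the D12 libraries for Msx2. Zic2, a factor of the neural plate border, had 0 and 0.374 FPKM in P1, against 13.3 and 12.5 FPKM in D12 (log2 fold change -3.57 ± 0.23, adjusted p = 1.02e-05). Those that rose included Sox9, a factor of crest and also of several epithelia, with 63.1 and 69.2 FPKM in P1, against 0.561 and 0.403 FPKM in D12 (log2 fold change 5.5 ± 0.77, adjusted p = 0.000735), and Ets1, with 40.8 and 35.03 FPKM in the P1 libraries and 8.95 and 7.73 FPKM in the D12 libraries (log2 fold change 2.06 ± 0.39, adjusted p = 0.00369). The defining crest genes Sox10 and Foxd3 were at or near 0 in all 4 libraries: Sox10 had 0 and 0.0545 FPKM in the P1 libraries and 0.0973 and 0 FPKM in the D12 libraries, and Foxd3 was listed at 0.

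Of 14 mesenchymal transcription factors tested, 7 fell and 0 rose, with a median log2 fold change of -2.23. Snai1, a repressor of E-cadherin, had 1.15 and 8.7 FPKM in P1, against 147 and 151 FPKM in D12 (log2 fold change -5.04 ± 1.2, adjusted p = 0.00999). Its relative Snai2 had 13.3 and 8.86 FPKM in the P1 libraries and 36.4 and 36.03 FPKM in the D12 libraries (log2 fold change -1.65 ± 0.17, adjusted p = 0.000159). Prrx2, a limb and craniofacial mesenchyme factor, had 8.96 and 10.6 FPKM in P1, against 176 and 237 FPKM in D12 (log2 fold change -4.26 ± 0.49, adjusted p = 0.000266). Zeb1 had 5.72 and 7.93 FPKM in the P1 libraries and 41.2 and 33.04 FPKM in the D12 libraries and was not called (log2 fold change -2.29 ± 1.31, adjusted p = 0.186). Zeb2 had 23.9 and 6.95 FPKM in P1, against 51.4 and 37.7 FPKM in D12 and was not called either. None of the 8 mesenchymal adhesion and filament genes was called by limma, although 2 of the 8 had an unadjusted p under 0.05 and voom on the recovered reads called 1 lower. That gene, Ncam1, had 4.98 and 5.799 FPKM in P1, against 10.3 and 13.2 FPKM in D12 (log2 fold change -0.99 ± 0.22, adjusted p = 0.00701). Vim, the intermediate filament vimentin, had 140.2 and 209 FPKM in P1, against 731 and 787 FPKM in D12 (log2 fold change -2.14 ± 1.41, adjusted p = 0.247). Cdh2, N-cadherin, had 2.31 and 2.45 FPKM in the P1 libraries and 19.7 and 15.99 FPKM in the D12 libraries. Without P8 replicate 2 in the spread, 4 of these 8 genes were called lower and 1 higher, and the mesenchymal factors called lower numbered 11 of 14.

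Neuronal genes that were on at D12 were at low levels in P1: 16 of 20 tested fell and 1 rose, with a median log2 fold change of -2.60. Gap43, a protein of growing axons, had 0 and 0.367 FPKM in P1, against 378 and 443 FPKM in D12 (log2 fold change -8.45 ± 1.46, adjusted p = 0.0022). The neurofilament gene Nefm had 0.0252 and 0.05704 FPKM in the P1 libraries and 110.4 and 101 FPKM in the D12 libraries (log2 fold change -6.68 ± 0.20, adjusted p = 1.40e-07), and Nefl was listed at 0 in both P1 libraries, against 42.9 and 46.3 FPKM in D12. Stmn3, Stmn4 and Syp, genes of axons and synaptic vesicles, fell with each P1 library alone. L1cam, a neural adhesion molecule also found in epithelia, was the member that rose, with 14.3 and 6.51 FPKM in P1, against 0.574 and 0.116 FPKM in D12 (log2 fold change 3.02 ± 0.66, adjusted p = 0.00699), a call lost without D12 replicate 2. Among the 12 largest falls by the naming rule were also Pla2g7, a secreted phospholipase that hydrolyses platelet-activating factor, with 5.27 and 11.8 FPKM in the P1 libraries and 1258 and 1515 FPKM in the D12 libraries, and Dio3, the enzyme that inactivates thyroid hormone, with 1.27 and 0.287 FPKM in P1, against 149 and 172 FPKM in D12. Nrgn, a calmodulin-binding protein of neurons, had 0.606 and 0.316 FPKM in the P1 libraries and 118 and 165 FPKM in the D12 libraries.

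Feedback genes of canonical Wnt signalling formed another group that fell. In this pathway Wnt ligands stabilise beta-catenin, which switches on targets with TCF and LEF factors, and several targets are themselves inhibitors of the pathway. Of 17 tested, 11 fell and 1 rose, with a median log2 fold change of -3.09, and over all settings compared between 10 and 11 fell. The secreted inhibitor Notum (chr11:120653788-120661175) had 0.472 and 1.003 FPKM in P1, against 120.2 and 172 FPKM in D12 (log2 fold change -6.4 ± 0.39, adjusted p = 8.23e-06). Nkd1, an inhibitor inside the cell, had 0.371 and 1.502 FPKM in the P1 libraries and 98.97 and 98.7 FPKM in the D12 libraries (log2 fold change -5.75 ± 0.26, adjusted p = 1.57e-06). Axin2, a scaffold of the destruction complex and a widely used target, had 12.6 and 4.24 FPKM in P1, against 80.1 and 63.1 FPKM in D12 (log2 fold change -3.09 ± 0.56, adjusted p = 0.0027). The factor Lef1 had 0 and 0.328 FPKM in the P1 libraries and 9.78 and 10.6 FPKM in the D12 libraries (log2 fold change -3.28 ± 0.28, adjusted p = 4.61e-05). Rnf43, a ubiquitin ligase that removes Wnt receptors, rose, with 13.9 and 10.1 FPKM in P1, against 1.17 and 1.4 FPKM in D12 (log2 fold change 2.5 ± 0.68, adjusted p = 0.0175). It was called with P1 replicate 1 alone but not with P1 replicate 2 alone, without D12 replicate 1 or without D12 replicate 2. Ccnd1, cyclin D1, had overlapping values, with 154 and 87.3 FPKM in the P1 libraries and 112 and 64.1 FPKM in the D12 libraries. The secreted inhibitor Dkk2 had 0.406 and 0.972 FPKM in P1, against 45.6 and 44.04 FPKM in D12 and was called with neither P1 library alone.

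The letters of a TCF and LEF site, CTTTGAT or CTTTGAA on either strand, were present in 2 of the 8 called lower members with a promoter in the table, against 7.37% of all genes tested, 8.2% of genes called higher and 7.87% of genes called lower. Of the 3 members not called that had a promoter, 1 held these letters too. The 2 promoters of called lower members, Tnfrsf19 (chr14:61037938-61038237, minus strand) and Sp5 (chr2:70474673-70474972, plus strand), are shown with the match in capitals.
Tnfrsf19: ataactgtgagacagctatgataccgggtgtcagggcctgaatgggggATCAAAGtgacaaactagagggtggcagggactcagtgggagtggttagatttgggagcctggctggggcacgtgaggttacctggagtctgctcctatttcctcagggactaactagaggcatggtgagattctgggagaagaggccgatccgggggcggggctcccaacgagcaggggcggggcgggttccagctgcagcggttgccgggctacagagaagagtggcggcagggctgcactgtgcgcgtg
Sp5: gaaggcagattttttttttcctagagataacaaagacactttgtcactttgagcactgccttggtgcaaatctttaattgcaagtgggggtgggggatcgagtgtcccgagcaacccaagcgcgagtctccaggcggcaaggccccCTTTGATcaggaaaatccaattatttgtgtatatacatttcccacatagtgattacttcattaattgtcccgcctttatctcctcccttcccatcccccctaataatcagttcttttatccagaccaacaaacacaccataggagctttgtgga
Tnfrsf19, a receptor of the tumour necrosis factor family, had 0.1998 and 1.896 FPKM in P1, against 55.7 and 52.3 FPKM in D12. Sp5, a zinc finger factor, had 0.1897 and 1.76 FPKM in the P1 libraries and 15.5 and 16.2 FPKM in the D12 libraries.

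Other signalling genes were mixed. Of 16 retinoid genes tested 2 rose (12.5%, against 14.9% of all genes tested) and 5 fell (31.2%, against 12.8%). Fewer were called in each direction without D12 replicate 1 or without D12 replicate 2. Crabp1, a cytoplasmic retinoic acid binding protein, was among the most abundant D12 genes, with 15.8 and 107 FPKM in P1, against 8272 and 11310.1 FPKM in D12 (log2 fold change -7.83 ± 2.64, adjusted p = 0.0408). Cyp26b1, an enzyme that degrades retinoic acid, had 12.8 and 58.9 FPKM in the P1 libraries and 443 and 328 FPKM in the D12 libraries. The synthesising enzyme Aldh1a3 rose, with 58.1 and 660.3 FPKM in P1, against 1.29 and 1.17 FPKM in D12 (log2 fold change 6.47 ± 1.6, adjusted p = 0.0118), as did the retinol dehydrogenase Rdh10. In the TGF-beta and BMP list 2 of 20 rose (10%, against 14.9% of all genes tested) and 6 fell (30%, against 12.8%). Those that fell included the BMP targets Id1 and Id3. Fewer of this list, too, were called in each direction without D12 replicate 1 or without D12 replicate 2. Id3 had 119 and 94.3 FPKM in P1, against 968 and 1131 FPKM in D12 (log2 fold change -3.29 ± 0.19, adjusted p = 5.94e-06). Id1 had 49.9 and 117 FPKM in the P1 libraries and 425 and 596 FPKM in the D12 libraries. Of the 7 EGF family ligands tested, Hbegf, Tgfa and Btc rose and Areg and Ereg fell, with 3 higher and 1 lower without D12 replicate 1 and 2 higher and 1 lower without D12 replicate 2. Hbegf had 25.4 and 49.7 FPKM in P1, against 3.86 and 3.697 FPKM in D12 (log2 fold change 2.94 ± 0.26, adjusted p = 6.26e-05). Ereg had 4.19 and 19.6 FPKM in the P1 libraries and 113 and 91.8 FPKM in the D12 libraries (log2 fold change -3.31 ± 0.93, adjusted p = 0.0204).

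The P1 label was set against markers of corneal endothelium, and the pattern did not follow 1 direction. Of 13 markers Col8a1, Foxc1 and the junction scaffold Tjp1 rose and Aqp1, Lmx1b and Tfap2b fell, and their summed level was 904 and 796 FPKM in P1, against 605 and 530 FPKM in D12. Col8a1, a collagen of Descemet membrane, rose, with 59.4 and 66.9 FPKM in P1, against 6.95 and 5.67 FPKM in D12 (log2 fold change 3.14 ± 0.30, adjusted p = 9.68e-05), whereas its partner Col8a2 had 0 and 0.299 FPKM in the P1 libraries and 0.535 and 0.411 FPKM in the D12 libraries and was not called. Aqp1, the water channel of corneal endothelium, fell, with 4.95 and 12.3 FPKM in P1, against 221 and 207 FPKM in D12 (log2 fold change -4.59 ± 0.94, adjusted p = 0.00511). Slc4a11, a transporter of the endothelial pump, had 3.05 and 13.4 FPKM in the P1 libraries and 9.18 and 9.65 FPKM in the D12 libraries, with the D12 values between those of the P1 libraries. The sodium pump subunit Atp1b1 rose, with 129 and 120.2 FPKM in P1, against 10.3 and 7.06 FPKM in D12 (log2 fold change 3.71 ± 0.60, adjusted p = 0.00161). Foxc1, a factor of periocular mesenchyme, rose, with 34.9 and 29.5 FPKM in P1, against 1.47 and 1.27 FPKM in D12 (log2 fold change 3.8 ± 0.94, adjusted p = 0.0118), whereas its relative Foxc2 fell, with 0.0325 and 0.734 FPKM in the P1 libraries and 15.9 and 15.7 FPKM in the D12 libraries. Cdh2, a marker at cell contacts of this layer, was low in P1, as given above. The single pCEC library was also low in Aqp1 (0.184 FPKM), Cdh2 (0.109 FPKM) and Col8a2 (0.0619 FPKM). It was above both D12 libraries in Col8a1 (90.4 FPKM) and Foxc1 (21.7 FPKM). Low values of Aqp1, Cdh2 and Col8a2 were thus not particular to P1 among libraries labelled as corneal endothelial. The pCEC library also held epithelial genes, with Krt5 at 676 FPKM, Krt14 at 644 FPKM and a sum of 3952 FPKM over 12 epithelial markers. Whether its low values hold for corneal endothelium itself was not tested.

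Beyond these markers, 7 of 18 transport genes tested rose and 1 fell, with a median log2 fold change of 0.73. Slc4a2, an anion exchanger, had 103 and 118 FPKM in P1, against 58.1 and 43.9 FPKM in D12 (log2 fold change 1.11 ± 0.16, adjusted p = 0.000912). Slc12a2, a sodium, potassium and chloride cotransporter, had 24.6 and 63.03 FPKM in the P1 libraries and 5.56 and 4.67 FPKM in the D12 libraries (log2 fold change 2.73 ± 0.49, adjusted p = 0.00264). Ano1, a calcium-activated chloride channel, had 35.6 and 67.7 FPKM in P1, against 0.4195 and 0.258 FPKM in D12 (log2 fold change 5.23 ± 0.79, adjusted p = 0.00108). Of 16 Descemet membrane genes tested, 3 rose (18.8%, against 14.9% of all genes tested) and 1 fell (6.25%, against 12.8%). The gene that fell was the matrix protein Sparc, with 465 and 423 FPKM in the P1 libraries and 2674 and 2734 FPKM in the D12 libraries. Without D12 replicate 1 or without D12 replicate 2, 2 rose and 0 fell. Col4a3 and Col4a5, chains of type IV collagen, rose with Col8a1. Among corneal genes, Pax6, the master regulator of eye development, was low in all 4 libraries, with 0.151 and 0.969 FPKM in P1, against 0.679 and 0.913 FPKM in D12, while the corneal crystallin Aldh3a1 rose, with 130.4 and 86.4 FPKM in the P1 libraries and 3.94 and 3.93 FPKM in the D12 libraries (log2 fold change 4.44 ± 1.54, adjusted p = 0.045), but was called with neither P1 library alone. Tkt, transketolase, rose as well, with 239 and 165 FPKM in P1, against 81.5 and 80.9 FPKM in D12 (log2 fold change 1.28 ± 0.16, adjusted p = 0.000433).

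Markers of other cell types were set beside these genes. Of 12 epithelial markers 11 rose, and their sum was 7581 and 10728 FPKM in P1, against 29 and 20.9 FPKM in D12. Of 8 fibroblast markers, only Pdgfra fell and none rose, a share near the 12.8% of all genes tested that were called lower. Pdgfra was not called with P1 replicate 2 alone. The sum of fibroblast markers was 473 and 1110 FPKM in P1, against 2126 and 1952 FPKM in D12. Macrophage markers summed to 20.4 and 17.97 FPKM in P1, against 10.3 and 14.4 FPKM in D12, most of it Cd68, and the defining genes C1qb and C1qc were listed at 0 in all 4 libraries. Of 6 vascular endothelial markers 3 were tested, of which Cdh5 and Kdr fell and Tek was not called. These 3 summed to 0.613 and 0.317 FPKM in P1, against 13.3 and 8.97 FPKM in D12. Pecam1, Tie1 and Emcn were not tested and were at or under 0.283 FPKM in all 4 libraries. The 7 of 9 neuron markers that were tested summed to 3.32 and 5.501 FPKM in P1, against 553 and 616 FPKM in D12. The part of a mixture of cell types in these changes was not tested.

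In the broader fibroblast list, 0 of 20 tested genes rose and 5 fell, with a median log2 fold change of -2.11. Pdgfra, a receptor of mesenchymal cells, had 6.03 and 27.8 FPKM in P1, against 455 and 376 FPKM in D12 (log2 fold change -4.86 ± 1.52, adjusted p = 0.0306). Col6a1 and Col6a2, chains of collagen VI, fell, and Fap fell with each P1 library alone. Col1a1 had 154 and 461 FPKM in the P1 libraries and 575 and 490.1 FPKM in the D12 libraries. Dcn had 23.4 and 177 FPKM in P1, against 142 and 130.05 FPKM in D12, where P1 replicate 2 lay near or above D12 and P1 replicate 1 below it. Without P8 replicate 2 in the spread 13 of the 20 fell and 1 rose, without D12 replicate 1, 1 fell, and without D12 replicate 2 none did. Of 17 matrix protease genes tested, 2 rose and 2 fell, or 11.8% each way, near the 14.9% and 12.8% of all genes tested. Without D12 replicate 1 or without D12 replicate 2, 1 rose and 0 fell. Mmp2, a gelatinase of stromal cells, had 33.2 and 153 FPKM in the P1 libraries and 2041 and 1874 FPKM in the D12 libraries (log2 fold change -4.75 ± 1.54, adjusted p = 0.0354), while Mmp15, a membrane-bound metalloproteinase, had 103 and 236 FPKM in P1, against 7.404 and 5.48 FPKM in D12 (log2 fold change 4.41 ± 1.3, adjusted p = 0.0241). Of 15 contractile genes tested, 1 rose (6.67%, against 14.9% of all genes tested) and 4 fell (26.7%, against 12.8%). Among those that fell was the calponin Cnn1, with 6.94 and 5.65 FPKM in the P1 libraries and 72.5 and 76.4 FPKM in the D12 libraries. Without D12 replicate 1 or without D12 replicate 2, 2 of the 15 fell. In the small lists of other lineages, the vascular genes Cdh5, Kdr and Esam fell, and Mbp rose while S100b fell. Of the 5 muscle genes tested, Myod1 and Tnnt1 fell, but 1 of them did without D12 replicate 2 and 0 with a pseudocount of 5. The muscle actin Acta1 had 2.02 and 71.7 FPKM in P1, against 1.15 and 1.43 FPKM in D12, was not called with both libraries and was called higher with P1 replicate 2 alone.

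Interferon-induced genes were higher in P1 almost throughout the list. Interferons act through promoters with an interferon-stimulated response element, and the products act against viruses. Of 26 tested, 24 rose and 0 fell, with a median log2 fold change of 3.83. Irf7, an amplifier of the interferon response, had 142 and 126 FPKM in P1, against 1.25 and 1.35 FPKM in D12 (log2 fold change 5.88 ± 0.28, adjusted p = 2.07e-06). The antiviral sensor Oasl2 had 176 and 69.5 FPKM in the P1 libraries and 0.448 and 0.723 FPKM in the D12 libraries (log2 fold change 6.14 ± 0.43, adjusted p = 1.73e-05). Ifit1, which binds viral RNA, had 98.7 and 37.6 FPKM in P1, against 0.314 and 0.386 FPKM in D12 (log2 fold change 5.52 ± 0.62, adjusted p = 0.000226), and Ifi44 had 102 and 89.7 FPKM in P1 and was listed at 0 in both D12 libraries. Irf9, a DNA-binding factor of interferon signalling, rose as well, with 45.4 and 29.5 FPKM in the P1 libraries and 6.58 and 5.55 FPKM in the D12 libraries. The exceptions were Ifit2, with 58.1 and 10.9 FPKM in P1, against 114 and 80.3 FPKM in D12, and Bst2, with 277 and 135 FPKM in the P1 libraries and 215 and 292 FPKM in the D12 libraries, and neither was called. Most members were higher in P1 replicate 1, but Oasl1 had 12.9 and 51.1 FPKM in P1, against 0.451 and 0.2698 FPKM in D12. Each P1 library alone called most of the list, 22 genes higher with replicate 1 and 19 with replicate 2, and over all settings compared between 19 and 24 genes were called higher. Ifit2 was called lower with P1 replicate 2 alone, without P8 replicate 2, with the D0, D7, D12 and P1 libraries only and with array weights (adjusted p of 0.0447 with P1 replicate 2 alone).

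Promoters of this list are shown with the core of the response element, GAAANNGAA on either strand. Of the 20 called members with a promoter in the table, 12 (60%) held it, against 8.81% of all genes tested, 10.4% of genes called higher and 8.19% of genes called lower. Of the 2 members not called, 1 held it. Ifi44 (chr3:151749861-151750160, minus strand) held 1 match and Ifit1 (chr19:34640639-34640938, plus strand) held 3, in capitals, of which 2 overlap.
Ifi44: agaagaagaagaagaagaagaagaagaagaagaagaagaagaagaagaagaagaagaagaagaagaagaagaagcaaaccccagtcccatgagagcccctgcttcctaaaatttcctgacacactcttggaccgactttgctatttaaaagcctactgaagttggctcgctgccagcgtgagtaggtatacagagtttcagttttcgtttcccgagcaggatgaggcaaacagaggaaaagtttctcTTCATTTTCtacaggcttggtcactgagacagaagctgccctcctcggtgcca
Ifit1: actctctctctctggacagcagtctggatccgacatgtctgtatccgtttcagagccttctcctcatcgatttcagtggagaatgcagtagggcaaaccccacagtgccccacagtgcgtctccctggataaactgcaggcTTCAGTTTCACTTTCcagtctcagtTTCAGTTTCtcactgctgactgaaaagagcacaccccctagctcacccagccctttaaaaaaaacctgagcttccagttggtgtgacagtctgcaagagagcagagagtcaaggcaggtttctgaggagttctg
In the Ifit1 promoter the matches begin 109, 103 and 84 bases before the start, and in Ifi44 the match begins 3 bases before it. A second motif, TTCNNNGAA, was present in 3 of the 20 called members with a promoter and in 2 of the 2 not called. Its share over all genes tested was 8.31%.

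Antigen presentation genes rose in the same direction, 11 of 14 tested and 0 lower, with a median log2 fold change of 1.90. The count was 7 without D12 replicate 1 or without D12 replicate 2. H2-K1, a class I heavy chain, had 1062 and 116 FPKM in P1, against 17.1 and 19.3 FPKM in D12 (log2 fold change 4.2 ± 0.77, adjusted p = 0.00296). H2-D1 had 1201 and 624 FPKM in the P1 libraries and 144 and 169.8 FPKM in the D12 libraries (log2 fold change 2.46 ± 0.25, adjusted p = 0.000145). Their light chain B2m had 1063 and 372 FPKM in P1, against 190.03 and 209 FPKM in D12 (log2 fold change 1.65 ± 0.56, adjusted p = 0.0405) and was called with P1 replicate 1 alone but not with replicate 2 alone. Tapbp, tapasin, which loads peptides, had 345 and 282 FPKM in the P1 libraries and 29.6 and 32.5 FPKM in the D12 libraries (log2 fold change 3.29 ± 0.42, adjusted p = 0.000455). Psmb9 was listed at 0 in both P1 libraries, against 0.859 and 0.694 FPKM in D12, and was not called. H2 genes share long stretches of sequence, so reads may be split between them.

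Several secreted defence proteins of mucosal surfaces were higher in P1. Of 18 tested, 9 rose and 1 fell, with a median log2 fold change of 4.33, and 13 rose without P8 replicate 2 but 5 without D12 replicate 1. Ltf, the iron-binding protein lactotransferrin (chr9:111019271-111042767), had 14897 and 39986 FPKM in P1, against 36.7 and 41.5 FPKM in D12, or 2.28% and 5.28% of all FPKM in the P1 libraries. Its groups did not overlap, but it was not called (log2 fold change 9.25 ± 3.72, adjusted p = 0.0748), with an adjusted p of 3.64e-07 without P8 replicate 2 in the spread. C3, the central complement component, had 923 and 204 FPKM in the P1 libraries and 18.7 and 17.6 FPKM in the D12 libraries (log2 fold change 4.51 ± 0.57, adjusted p = 0.000441). Il1rn, the receptor antagonist of interleukin 1, had 117 and 126 FPKM in P1, against 0.123 and 0.574 FPKM in D12 (log2 fold change 6.53 ± 0.66, adjusted p = 0.000131). Wfdc18, a protein of the whey acidic protein family, had 103 and 1640.1 FPKM in P1, against 0 and 0 FPKM in D12. S100a8, a calcium-binding protein of inflamed tissue, was the member that fell, with 7.56 and 11.2 FPKM in the P1 libraries and 93.1 and 148 FPKM in the D12 libraries (log2 fold change -3.54 ± 0.41, adjusted p = 0.000286), whereas its partner S100a9 had 25.5 and 26.9 FPKM in P1, against 0.346 and 0.745 FPKM in D12 and was not called. Saa3, an acute phase protein, had 92.1 and 1299 FPKM in the P1 libraries and 16.2 and 28.98 FPKM in the D12 libraries and was not called.

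Chemokines and cytokines were partly in the same direction, with 11 of 23 tested higher and 1 lower. Cxcl5, a neutrophil attractant, had 774 and 657 FPKM in P1, against 22.4 and 20.6 FPKM in D12 (log2 fold change 4.99 ± 0.84, adjusted p = 0.00197). Il33, an alarmin of epithelia, had 325 and 279 FPKM in the P1 libraries and 90.3 and 80.2 FPKM in the D12 libraries (log2 fold change 1.81 ± 0.14, adjusted p = 2.66e-05). Tnf had 12.8 and 28.8 FPKM in P1, against 0.307 and 0.0826 FPKM in D12 (log2 fold change 4.09 ± 0.76, adjusted p = 0.00325). Cxcl14 fell, with 0.538 and 3.28 FPKM in the P1 libraries and 18.3 and 19.99 FPKM in the D12 libraries. The monocyte attractant Ccl2 had 32.2 and 82.7 FPKM in P1, against 198 and 226 FPKM in D12. Its relative Ccl7 had 12.99 and 45.6 FPKM in the P1 libraries and 552 and 641 FPKM in the D12 libraries. Neither was called, although D12 was higher in both genes without overlap. Cxcl10, an interferon-induced chemokine, had 71.2 and 2.95 FPKM in P1, against 1.09 and 0.612 FPKM in D12 and was called with P1 replicate 1 alone only, of the 2 libraries. Cd14, a co-receptor for bacterial lipopolysaccharide, was the 1 of 12 genes of the macrophage list that rose (8.33%, against 14.9% of all genes tested). It had 256 and 311 FPKM in the P1 libraries and 1.78 and 2.77 FPKM in the D12 libraries (log2 fold change 6.45 ± 0.82, adjusted p = 0.000444).

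Genes of sterol synthesis and of glycolysis were called higher more often than lower. Of 21 sterol synthesis and uptake genes tested, 11 rose and 0 fell, with a median log2 fold change of 1.29, and 6 rose without D12 replicate 1 or without D12 replicate 2. Insig1, a sterol-regulated protein that holds back the pathway, had 8.05 and 16.5 FPKM in P1, against 2.27 and 2.15 FPKM in D12 (log2 fold change 1.97 ± 0.26, adjusted p = 0.00051). Of 19 glycolysis genes tested, 7 rose and 1 fell, with a median log2 fold change of 0.75. The glucose carrier Slc2a1 had 504 and 294 FPKM in P1, against 71.3 and 66.9 FPKM in D12 (log2 fold change 2.46 ± 0.21, adjusted p = 5.05e-05), and the lactate exporter Slc16a3 had 192 and 165 FPKM in the P1 libraries and 28.3 and 28.1 FPKM in the D12 libraries (log2 fold change 2.62 ± 0.35, adjusted p = 0.000587). Pfkm, the muscle form of phosphofructokinase, fell, with 22.6 and 20.1 FPKM in P1, against 49.01 and 49.5 FPKM in D12, while the other forms Pfkl and Pfkp rose. Gapdh was at only 51.4 and 16.2 FPKM in P1 and 16.5 and 14.6 FPKM in D12, far below Eno1, and it was as low in D0, where the deposited IDs apply directly (8.21 to 11.8 FPKM).

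Among the 12 largest rises by the naming rule, Sfn, an epithelial 14-3-3 protein, had 359 and 383 FPKM in P1, against 0.517 and 0.397 FPKM in D12. Anxa8, an annexin of stratified epithelia, had 263 and 367 FPKM in the P1 libraries and 0.154 and 0.166 FPKM in the D12 libraries. Gabrp, a subunit of the GABA-A receptor found in epithelia, had 205 and 329 FPKM in P1, against 0.0318 and 0 FPKM in D12. Calml3, a calmodulin-like protein of epithelia, had 277 and 191 FPKM in the P1 libraries and 0.247 and 0.332 FPKM in the D12 libraries. Trim29, a keratin-binding protein of squamous epithelia, had 333 and 284 FPKM in P1, against 0.2703 and 0.388 FPKM in D12. The rule itself requires P1 values above both D12 values, so that order is not a further result. In these 5 genes the P1 libraries were under 2-fold apart, but others of the 12 were further apart. Krt4 had 131 and 1155 FPKM in P1, and Krt8 had 319.8 and 1333 FPKM.

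Imprinted genes, which are expressed from 1 parental allele and are high in embryonic tissue, fell or were not called. Of 15 tested, 9 fell and 0 rose, with a median log2 fold change of -2.69, and 4 fell without D12 replicate 1 or without D12 replicate 2. The noncoding RNA H19 had 1.81 and 4.18 FPKM in P1, against 131 and 143 FPKM in D12 (log2 fold change -5.17 ± 0.24, adjusted p = 1.57e-06). Mest had 1.49 and 1.31 FPKM in the P1 libraries and 30.5 and 22.2 FPKM in the D12 libraries (log2 fold change -3.49 ± 0.28, adjusted p = 3.51e-05), and the growth inhibitor Cdkn1c, a CDK inhibitor, had 1.19 and 0.982 FPKM in P1, against 44.7 and 55.5 FPKM in D12 (log2 fold change -4.61 ± 0.34, adjusted p = 2.12e-05). In the list of CDK inhibitors and p53 targets, 4 of 16 rose (25%, against 14.9% of all genes tested) and 1, Cdkn1c, fell (6.25%, against 12.8%). Without D12 replicate 1, 2 rose, without D12 replicate 2, 1 rose, and with P1 replicate 2 alone 2 rose and 2 fell. Cdkn1b, the CDK inhibitor p27, rose, with 27.5 and 21.4 FPKM in the P1 libraries and 3.86 and 2.54 FPKM in the D12 libraries (log2 fold change 2.61 ± 0.59, adjusted p = 0.00799). Cdkn1a, the p53 target p21, had 517 and 836 FPKM in P1, against 934 and 871 FPKM in D12 and was not called.

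Hox genes, which mark position along the body axis, had calls in both directions. Of 36 tested, 6 rose (16.7%, against 14.9% of all genes tested) and 8 fell (22.2%, against 12.8%). Without D12 replicate 2, 3 rose and 6 fell, and with a pseudocount of 5, 2 rose and 4 fell. The 6 that rose were Hoxa3, Hoxa5, Hoxa6, Hoxb3, Hoxb5 and Hoxb6, and the 8 that fell were Hoxa13, Hoxc4, Hoxc5, Hoxc6, Hoxc8, Hoxc13, Hoxd1 and Hoxd13. Hoxb6 had 69.7 and 34.2 FPKM in P1, against 10.8 and 11.9 FPKM in D12 (log2 fold change 2.02 ± 0.27, adjusted p = 0.000574). Hoxc6 had 7.09 and 3.18 FPKM in the P1 libraries and 34.6 and 36.1 FPKM in the D12 libraries (log2 fold change -2.64 ± 0.65, adjusted p = 0.0117). The P1 libraries disagreed in the HoxD cluster. Hoxd10 had 28.8 and 0.606 FPKM in P1, against 4.06 and 4.02 FPKM in D12. Hoxd9 had 26.8 and 0.796 FPKM in the P1 libraries and 7.97 and 8.67 FPKM in the D12 libraries. Both were called higher with P1 replicate 1 alone and lower with P1 replicate 2 alone.

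The count of cell cycle genes depended on which P1 library was used. With both libraries 1 of 28 tested rose (3.57%, against 14.9% of all genes tested) and 2 fell (7.14%, against 12.8%), with a median log2 fold change of 1.09. With P1 replicate 1 alone 20 rose and 1 fell, with a median of 2.12, and with P1 replicate 2 alone 1 rose and 2 fell, with a median of 0.00. Mki67, the proliferation antigen Ki-67, had 18.6 and 0.903 FPKM in P1, against 0.179 and 0.169 FPKM in D12 (log2 fold change 2.38 ± 0.90, adjusted p = 0.0619). Top2a, a topoisomerase of dividing cells, had 62.4 and 3.95 FPKM in the P1 libraries and 3.26 and 2.64 FPKM in the D12 libraries (log2 fold change 2.17 ± 0.95, adjusted p = 0.0961). Mcm6, a subunit of the replicative helicase, was the gene that rose with both, with 22.6 and 7.498 FPKM in P1, against 2.202 and 2.37 FPKM in D12 (log2 fold change 2.11 ± 0.38, adjusted p = 0.00266). Tyms and E2f1 fell, with 9.35 and 3.73 FPKM in the P1 libraries and 15.7 and 19.4 FPKM in the D12 libraries for Tyms and 1.86 and 4.26 FPKM in the P1 libraries and 14.4 and 14.4 FPKM in the D12 libraries for E2f1. The summed level of the list was 572 and 143 FPKM in P1, against 179 and 178 FPKM in D12.

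**Figure D3:**
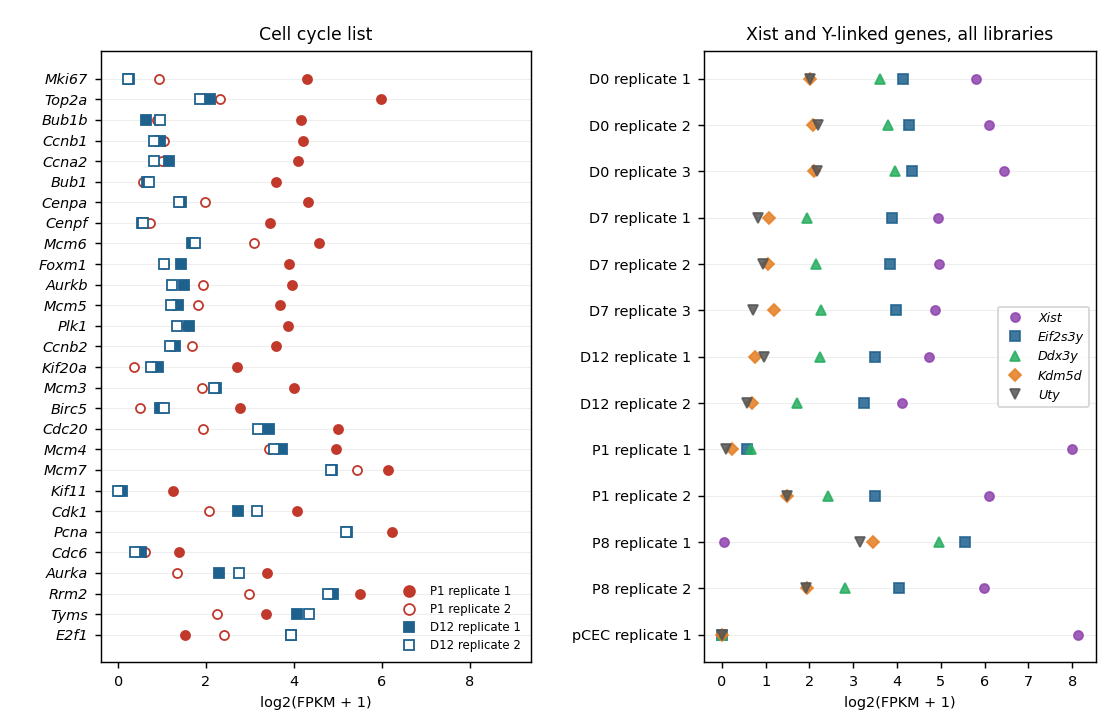
Left, log2(FPKM + 1) of the cell cycle list in each P1 (red circles) and D12 (blue squares) library, where P1 replicate 1 stands to the right of the other 3 libraries for most genes. Right, log2(FPKM + 1) of Xist and of 4 Y-linked genes in all 13 libraries, in the order of stages, where Xist is highest in P1 replicate 1 and pCEC and near 0 in P8 replicate 1.

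The P1 libraries also differed in Xist, the noncoding RNA of the inactive X chromosome, and in Y-linked genes, which were singled out after their values were seen. Xist had 255 and 67.2 FPKM in P1, against 25.4 and 16.4 FPKM in D12. Eif2s3y had 0.487 and 10.3 FPKM in the P1 libraries and 10.3 and 8.56 FPKM in the D12 libraries. Ddx3y had 0.576 and 4.36 FPKM in P1, against 3.71 and 2.28 FPKM in D12. P1 replicate 1 was thus the highest of the 4 libraries in Xist and the lowest in both Y-linked genes, while P1 replicate 2 lay within the D12 values for Eif2s3y and above both of them for Ddx3y. Kdm5d had 0.179 and 1.803 FPKM in the P1 libraries and 0.688 and 0.6203 FPKM in the D12 libraries. Uty had 0.0746 and 1.82 FPKM in P1, against 0.942 and 0.496 FPKM in D12. None of these 5 genes was called with both P1 libraries, and Eif2s3y was called lower with P1 replicate 1 alone. The part of a difference in the sex of the starting cells in the other differences between the P1 libraries was not tested.

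Of the 4797 called genes, 901 were over 2-fold apart between the P1 libraries, against 3228 of all 17332 genes tested, a similar share. Of the genes named above, Aldh3a1, Col6a2, Crabp1, Dkk2, Esrp1, Krt6b, Mmp15 and Sparc were called with both P1 libraries together but with neither alone. The called genes that differed most by the naming rule were, on the side of P1 replicate 1, Acod1, the itaconate-producing enzyme of activated immune cells, with 102 and 5.3 FPKM in P1, against 0.0227 and 0.0977 FPKM in D12, and Olfm4, a secreted glycoprotein of gut epithelium, with 135 and 13.8 FPKM in the P1 libraries and 0 and 0.0381 FPKM in the D12 libraries. Sp100, a nuclear body protein induced by interferon, had 32.7 and 2.49 FPKM in P1, against 0.0822 and 0.133 FPKM in D12. On the side of P1 replicate 2 were the lipoxygenases Alox15 and Alox12e, which oxidise fatty acids. Alox15 had 6.42 and 343 FPKM in P1, against 0.168 and 0.1803 FPKM in D12. Alox12e had 27.2 and 795 FPKM in the P1 libraries and 0.155 and 0.111 FPKM in the D12 libraries. The phosphatase Alpl had 5.37 and 162 FPKM in P1, against 1.58 and 1.54 FPKM in D12. Apart from Acod1, Olfm4, Sp100, Alox15, Alox12e and Alpl, the rule named Rasgrp3, Hmgn2 and Angptl7 for replicate 1 and Cd200 and the pseudogenes Atp6v0c-ps2 and Rps2-ps13 for replicate 2, and the pseudogenes share reads with their parent genes, so their values are uncertain.

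**Figure D4:**
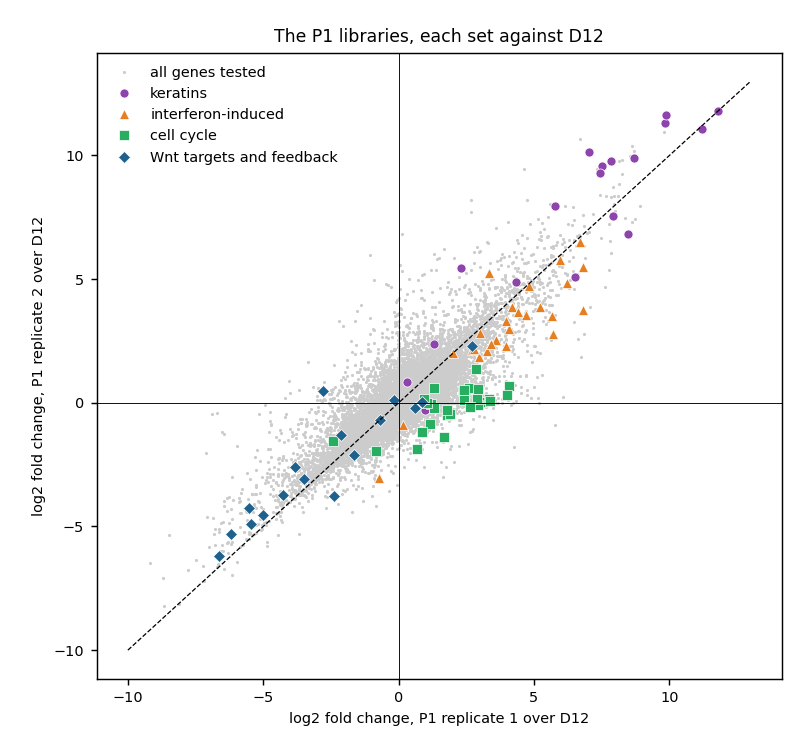
Log2 fold change over D12 of each gene tested with P1 replicate 1 alone (horizontal axis) and P1 replicate 2 alone (vertical axis), with the line of equal values dashed. Keratins and interferon-induced genes lie at the upper right, Wnt targets at the lower left, and cell cycle genes run to the right along 0 of the vertical axis.

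The summed level of the lists can be set beside the other stages. The keratin sum was 25.03 to 29.2 FPKM in D0, 20.02 to 22.4 FPKM in D7, 12.6 to 13.3 FPKM in D12 and 11038 to 21602 FPKM in P1. It was 15937 FPKM in P8 replicate 1, 37.5 FPKM in P8 replicate 2 and 7932 FPKM in pCEC. The sum of Wnt targets was 144 to 150.4 FPKM in D0, 1237 to 1270.2 FPKM in D7, 955 to 1068 FPKM in D12 and 187 to 212 FPKM in P1. The interferon-induced sum was 613 to 691 FPKM in D0, 263 to 270.4 FPKM in D7, 398 to 442 FPKM in D12 and 1126 to 2069 FPKM in P1. It was 1313 FPKM in P8 replicate 1, 3194 FPKM in P8 replicate 2 and 4454 FPKM in pCEC, so P8 replicate 2 and pCEC lay above both P1 libraries. The sum of Wnt targets was 186 FPKM in P8 replicate 1, 319 FPKM in P8 replicate 2 and 280.2 FPKM in pCEC. These sums are descriptions without a test, and the spread of the P8 pair is the reason that alternatives without P8 replicate 2 are given.

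**Figure D5:**
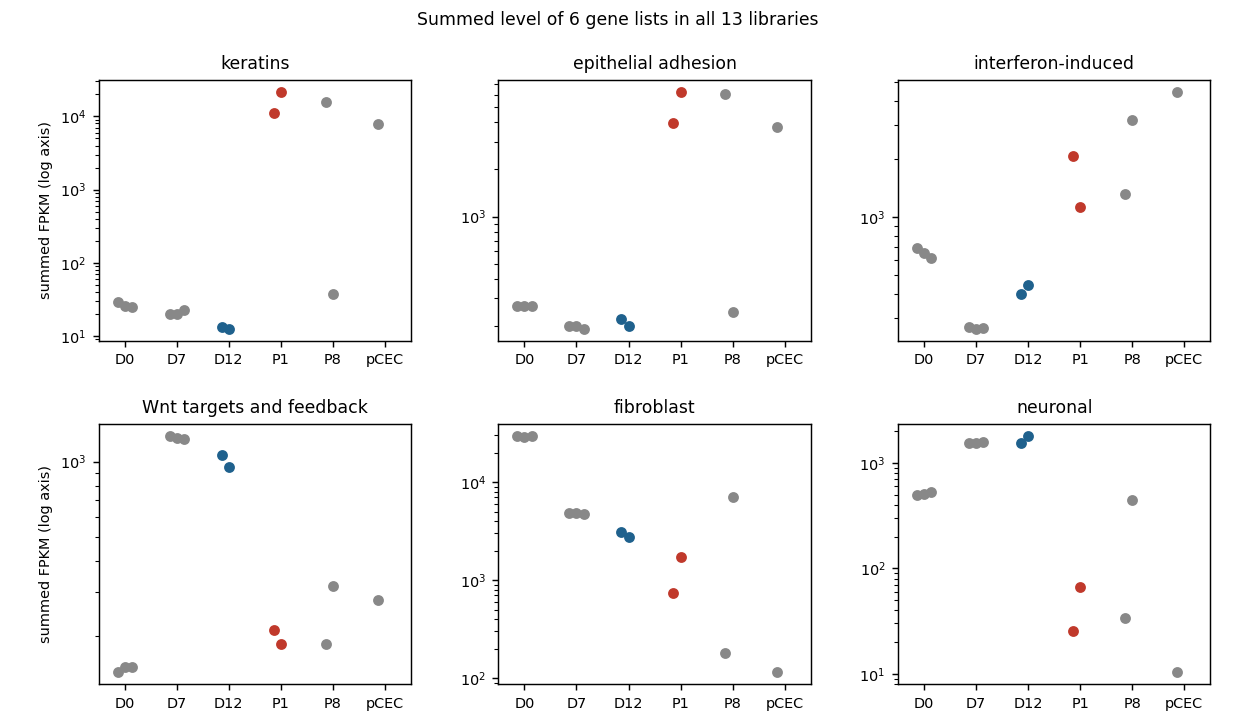
Summed FPKM (log axis) of 6 gene lists in all 13 libraries, in the order of stages, with P1 in red, D12 in blue and the other groups in grey. The keratin sum is under 40 FPKM in D0, D7, D12 and P8 replicate 2 and at least 7932 FPKM in the P1 libraries, P8 replicate 1 and pCEC.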

How the data were processed

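Total RNA, extracted with Trizol and made into Illumina TruSeq libraries per the labels' protocols, was measured in 13 libraries of mouse cells. The table deposited by the authors gives FPKM values. The submitters' processing notes list Bowtie 0.12.2 as a tool and mm8 and mm10 as builds, without a role for any of them. All 13 columns of per-sample values were mapped to a sample and 0 were not used. The ID column matches the D0 columns only. In each other group a gene was given a line where the order of slots in a hash table of 131072 slots allowed it and where its FPKM, multiplied by its GENCODE M21 (GRCm38) mean transcript length and the library total, lay within 0.001 of a whole number of reads in every library. Expression levels of other groups were not used to place genes. In a check on D0 with IDs hidden, 25162 of 25166 placed genes were right. With 2 libraries and a random subset of genes whose lengths were treated as unchecked, all 4661 placed genes of that subset were right, and 93.05% of those at 1 FPKM or more were placed. Of 334 lengths set anew after they had been hidden, 309 were right. In P1 97.55% and in D12 97.79% of lines with reads were placed. A later step set aside 26 genes listed at 0 throughout D7, D12, P1 or P8. Their mean was at least 1 FPKM in every other group, with pCEC not counted. This step did use levels of other groups, so a gene that was off in that group alone could be left out. A further 146 unresolved genes were not tested, and 0 in every library of a group is the least certain placement.

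FPKM values are not counts, so log2(FPKM + 1) was tested with limma 3.58.1 in R 4.3.3, with 1 mean per group, all 13 libraries, a trended prior and 7 residual degrees of freedom, for genes at 1 FPKM or more in at least 1 library. P-values were adjusted by Benjamini-Hochberg over all 17332 genes. Each P1 library alone is assumed to vary like the other groups. The script was tested on simulated data. Other settings tried were pseudocounts of 0.1 and 5, a filter at 5 FPKM or none, no fold limit, TMM factors, voom on the recovered reads, array weights, other sets of libraries, a replicate block, and each replicate left out. The 34 gene lists, the members and the rules were chosen with earlier results of these data known. Genes were named as list members, as the 12 largest changes in each direction with reads in both groups, no overlap, a mean of at least 10 FPKM and a call with each P1 library alone, or as the 6 called genes furthest apart between the P1 libraries in each direction. Promoters were read from a RefSeq table of GRCm38.p6 that does not hold every gene, and gene coordinates are those of GENCODE M21. The values of some genes on the lists are not reported here one by one, although the genes are in the counts.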

Additional observations from a re-analysis of the deposited data

How the results depend on the processing

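The 4797 genes called in P1 against D12 became 2998 with a pseudocount of 5, and the counts with a single P1 library became 3302 in place of 5351 for replicate 1 and 2567 in place of 4239 for replicate 2. Leaving out 1 P1 or D12 library gave between 2868 genes (without D12 replicate 2) and 5351 genes (without P1 replicate 2) for the pair, between 3778 and 4755 for P1 replicate 1 alone and between 3045 and 3636 for P1 replicate 2 alone. The count for the pair was 5581 with a pseudocount of 0.1, 4810 with TMM factors, 5309 with voom, 3600 with the P1 and D12 libraries alone, 5714 without P8 replicate 2 (6884 for P1 replicate 1 alone and 5919 for P1 replicate 2 alone) and 7140 with no fold limit. Of 558 named genes and list members, 72 lost their call with voom, 140 without D12 replicate 2 and 0 without P8 replicate 2, where 75 gained one. The directions that turned were those of Hoxd9 and Hoxd10, neither of which was called with both libraries. Without P1 replicate 1 their log2 fold changes were -2.37 and -1.65 in that order, and without P1 replicate 2 they were 1.58 and 2.56. The cause was not tested.

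P1 and D12 share replicate numbers, and same-numbered libraries correlated at 0.18 in their deviations from the group means, over only 2 pairs, so the numbers are not taken to pair them. With the replicate block 4410 genes were called for the pair, 4110 for P1 replicate 1 alone and 3807 for P1 replicate 2 alone.

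Depth is known only through the recovered totals, of which P1 replicate 2 had the lowest, so low values there rest on fewer reads. PCR duplicates were not marked in the files. With 2 libraries a group the spread is mostly that of the other groups.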

Other observations

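Some of the most abundant or best known genes outside the lists also moved, and they were chosen here after their values were seen. Gsto1, a glutathione transferase of the omega class, had 9635 and 22651 FPKM in P1, against 200.1 and 232 FPKM in D12 (log2 fold change 6.09 ± 1.05, adjusted p = 0.00215), which made it one of the most abundant P1 genes. Anxa1, an annexin of epithelia and immune cells, had 5452 and 7873 FPKM in the P1 libraries and 503 and 519 FPKM in the D12 libraries (log2 fold change 3.68 ± 0.84, adjusted p = 0.00846). Notch1, a receptor of contact-dependent signalling between neighbouring cells, had 170.1 and 112 FPKM in P1, against 14.2 and 9.91 FPKM in D12 (log2 fold change 3.43 ± 0.28, adjusted p = 4.20e-05), and Jag1, one of its ligands, had 48.2 and 98.4 FPKM in the P1 libraries and 1.11 and 0.851 FPKM in the D12 libraries (log2 fold change 5.14 ± 0.81, adjusted p = 0.00135). The mucin Muc4 had 227 and 65.5 FPKM in P1, against 0 and 0 FPKM in D12.

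Other genes were lower in P1. The ligand Wnt5a, which acts mostly outside the beta-catenin branch, had 33.5 and 25.2 FPKM in P1, against 421 and 324 FPKM in D12 (log2 fold change -3.62 ± 0.80, adjusted p = 0.00718). The water channel Aqp5 had 0.734 and 8.53 FPKM in the P1 libraries and 219 and 244 FPKM in the D12 libraries (log2 fold change -5.84 ± 0.60, adjusted p = 0.000143). The metallothionein Mt1, which binds zinc and copper, had 129 and 299 FPKM in P1, against 1275 and 2052 FPKM in D12 (log2 fold change -3.04 ± 0.50, adjusted p = 0.00176). Igfbp6, a binding protein of insulin-like growth factors, had 9.99 and 11.5 FPKM in the P1 libraries and 151 and 192 FPKM in the D12 libraries (log2 fold change -3.87 ± 0.55, adjusted p = 0.000784). Each of these 4 genes was also called lower with each P1 library alone. Lgals7, a galectin of stratified epithelia, had 184 and 5.31 FPKM in P1, against 0.527 and 0.992 FPKM in D12 and was not called with both libraries.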
